A study of Homo sapiens with 27 samples.

Results

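Arginine methyltransferases transfer methyl groups from S-adenosylmethionine (SAM) to arginine residues of proteins, and the mRNAs of 10 genes of this system were followed in U937 cells treated with matrine. The genes were taken by name from the 57905 genes of the expression table, with earlier results of these data known, so their counts describe a chosen set. They were 7 methyltransferases (PRMT1, PRMT2, PRMT3, CARM1, PRMT5, PRMT6 and PRMT7) and 3 proteins that bind PRMT5 (WDR77, CLNS1A and RIOK1), and all 10 were matched and passed the filter on low expression.

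U937 is a human myeloid leukemia cell line of monocytic type, and matrine is an alkaloid from the roots of Sophora plants. RNA-seq was performed on 3 libraries of control cells and on 3 libraries at each of 30 min and 24 h after matrine was added at 0.8 mg/ml. All cells were grown in the same serum-containing medium, the vehicle named by the study was ddH2O, and the single control group served both time points. The culture time of the control is not given in the sources used here, so 24 h of matrine and the time spent in culture cannot be told apart. HL-60 and K562 cells of the same series were not analysed here. Nothing in the labels says that libraries of a group came from separate cultures, so p-values measure the spread between these libraries, which may be technical.

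Each library held between 17314931 and 21930018 counted reads, of which the 10 most abundant genes took 4.99% to 5.28%. Of 12 myeloid markers, 10 had a mean above 1 FPKM (read counts scaled by gene length and library size) in control cells. The other two, MPO and CSF1R, had medians of 0.29 and 0.65 FPKM there. Of 6 erythroid markers only KLF1 was above that level. Summed over the list, the myeloid markers lay between 2126.59 and 2394.33 FPKM in control libraries and between 2959.85 and 3121.95 FPKM in the 24 h libraries. The members of the list differed in direction. Mean levels in control and 24 h libraries were 885 and 1378 FPKM for ELANE, 205 and 357 for AZU1 and 47.8 and 162 for FCER1G, but 67.6 and 56.0 for SPI1, 41.0 and 32.9 for CEBPA and 292 and 244 for LYZ, with CD33 at 14.7 and 14.5. The part of these differences in the results below was not tested.

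The enzymes fall into types by the product they leave on arginine. Type I enzymes (PRMT1, PRMT2, PRMT3, CARM1 and PRMT6 among these genes) make asymmetric dimethylarginine, PRMT5 is the main type II enzyme and makes symmetric dimethylarginine, and PRMT7 is a type III enzyme that stops at monomethylarginine. PRMT5 works in a complex with the WD-repeat protein WDR77, also called MEP50. CLNS1A (pICln) and RIOK1 bind PRMT5 in a mutually exclusive way as substrate adaptors, CLNS1A bringing spliceosomal Sm proteins and RIOK1 bringing nucleolin. In blood cells PRMT1 and PRMT5 are studied for their roles in splicing, ribosome assembly and the growth of leukemia cells.

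The sequences before the transcription starts of 4 of the genes are shown. They cover the enzyme that rose (PRMT2), the type II enzyme (PRMT5), and both genes with the letters CACGTG (PRMT3 and WDR77). Each sequence runs 5′ to 3′ on the strand of its gene, from 250 bases before the RefSeq start to 30 bases after it. Capitals mark the letters CACGTG, a form of the E-box that c-Myc and related factors bind. Other forms of the E-box were not searched for. On GRCh38.p14 the PRMT2 window lies at chr21:46635424-46635703 on the plus strand and the PRMT3 window at chr11:20387466-20387745 on the plus strand. The PRMT5 window lies at chr14:22929347-22929626 and the WDR77 window at chr1:111449227-111449506, both on the minus strand.
PRMT2: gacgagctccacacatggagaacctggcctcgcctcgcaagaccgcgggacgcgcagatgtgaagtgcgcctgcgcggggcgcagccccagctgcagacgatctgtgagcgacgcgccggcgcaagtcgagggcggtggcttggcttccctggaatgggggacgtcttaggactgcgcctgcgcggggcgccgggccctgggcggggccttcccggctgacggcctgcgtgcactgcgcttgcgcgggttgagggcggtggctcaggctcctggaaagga
PRMT3: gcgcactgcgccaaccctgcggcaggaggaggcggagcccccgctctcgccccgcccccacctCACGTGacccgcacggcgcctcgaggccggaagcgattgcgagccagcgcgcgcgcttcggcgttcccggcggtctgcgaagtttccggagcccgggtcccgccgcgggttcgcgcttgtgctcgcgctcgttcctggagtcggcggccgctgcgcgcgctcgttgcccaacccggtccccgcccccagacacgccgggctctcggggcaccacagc
PRMT5: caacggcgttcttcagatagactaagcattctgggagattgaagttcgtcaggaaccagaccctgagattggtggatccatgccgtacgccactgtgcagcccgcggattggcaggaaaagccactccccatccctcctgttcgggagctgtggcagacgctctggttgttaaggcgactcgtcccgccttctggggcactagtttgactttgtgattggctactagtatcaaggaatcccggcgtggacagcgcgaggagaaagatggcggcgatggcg
WDR77: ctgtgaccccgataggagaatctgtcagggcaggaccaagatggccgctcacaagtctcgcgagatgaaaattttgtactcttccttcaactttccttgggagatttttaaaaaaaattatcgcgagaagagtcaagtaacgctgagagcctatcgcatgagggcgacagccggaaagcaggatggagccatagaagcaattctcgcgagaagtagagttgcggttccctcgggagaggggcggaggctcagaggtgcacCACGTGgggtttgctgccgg

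RefSeq gave 12 windows for the 10 genes, from 250 bases before to 50 bases after a start. CACGTG, which reads the same on both strands, was present in the windows of 2 of the 10 genes, at position -187 from the start in PRMT3 and at position 11 after it in WDR77. These letters were held by 7.26% of all 35116 RefSeq windows, and by 13.2% of the 8584 tested genes with a window. The CG dinucleotide, the site of DNA methylation, occurred 15 to 56 times in the windows of the 10 genes (median 24.5), against a median of 26 for tested genes. The letters are a description only, and binding was not measured here.

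After 24 h of matrine, 8 of the 10 mRNAs were down-regulated, PRMT2 was up-regulated, and PRMT7 fell by less than the fold threshold. PRMT1, the predominant type I enzyme of mammalian cells, had the largest decrease of the 10, 59.4%, and PRMT5 decreased by 47.9%. A gene was called when its adjusted p (from edgeR, quasi-likelihood F-test, adjusted by Benjamini-Hochberg over all genes tested) was below 0.05 and its fold change was at least 1.5. Among all 12035 genes tested, 11.2% were called lower and 15.1% were called higher, against 8 and 1 of the 10. The median log2 fold change of the 10 genes was -0.83, and that of all genes tested was 0.0082. In all 10 genes the 24 h libraries did not overlap the control libraries in FPKM, 9 being lower and PRMT2 higher, and the same held for 31.1% of all genes on the lower side and 38.6% on the higher side. In a bulk sample, fewer cells with an mRNA and less of it per cell cannot be told apart.

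**Figure D1:**
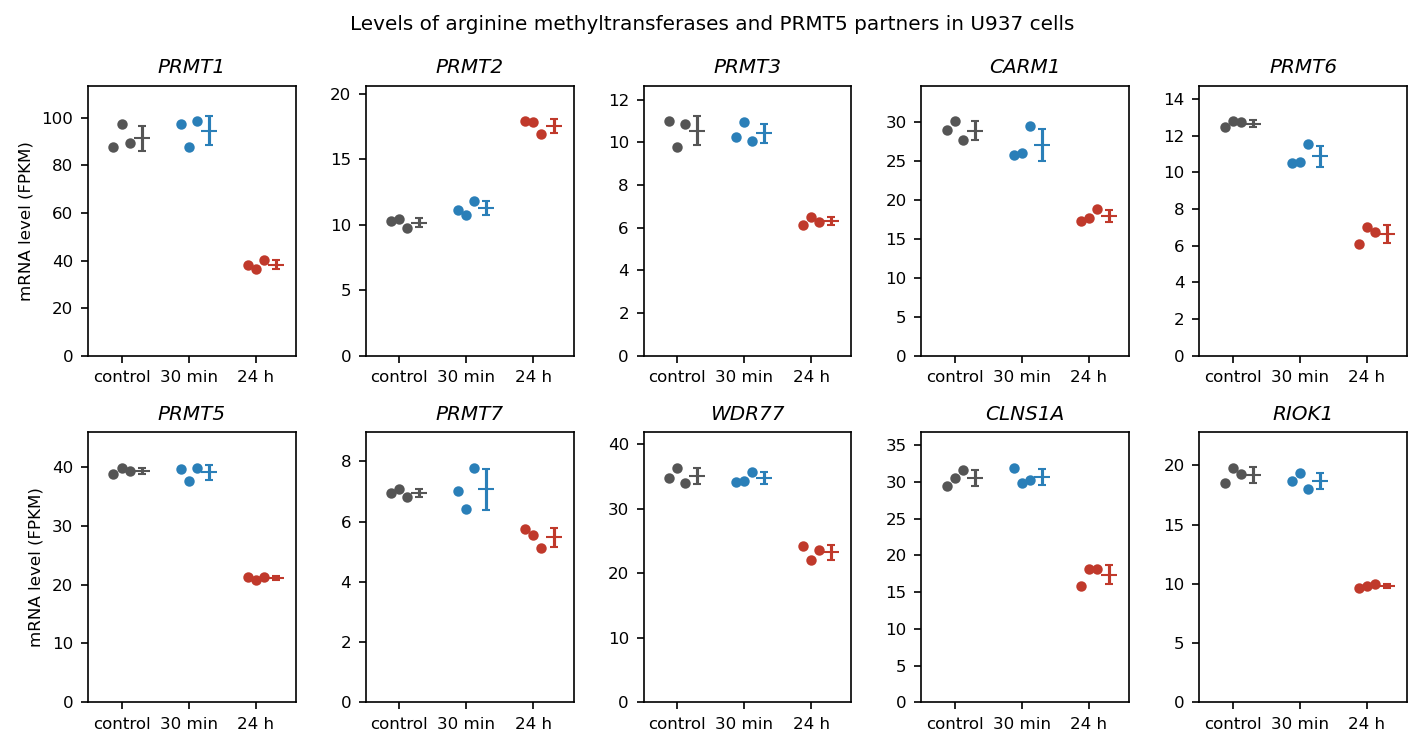
mRNA level in FPKM (vertical axes, from 0 and scaled for each gene) of the 10 genes in the 3 control, 3 30 min and 3 24 h libraries. Points are libraries, and the bars beside them are mean ± SD. The 24 h points lie below the control points in 9 genes and above them in PRMT2.

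PRMT1 (ENSG00000126457, chr19:49675786-49689029, plus strand, GRCh38) was the most abundant of the 10 in every group. Its level was 87.47, 97.28 and 89.34 FPKM in the control libraries, 97.46, 87.50 and 98.49 FPKM after 30 min, and 38.23, 36.68 and 40.16 FPKM after 24 h. The control and 30 min libraries intermingled, and every 24 h library lay far below the lowest control. The log2 fold change at 24 h was -1.30 ± 0.064 (SE, n = 3 per group, edgeR adjusted p = 5.2e-13). It stood at the 1.14th percentile of the fold changes of all genes tested, counted from the lowest.

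PRMT6 (ENSG00000198890, chr1:107056674-107067636, plus strand), a nuclear enzyme that methylates histone H3, had the next largest decrease among type I enzymes. It was measured at 12.45, 12.78 and 12.71 FPKM in the control, 10.48, 10.58 and 11.54 FPKM after 30 min, and 6.10, 7.04 and 6.75 FPKM after 24 h. The groups formed 3 separate levels, with the 30 min libraries between the others. The log2 fold change at 24 h was -0.98 ± 0.085 (SE, n = 3 per group, edgeR adjusted p = 2.8e-09).

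PRMT3 (ENSG00000185238, chr11:20387558-20509338, plus strand), a cytosolic enzyme known for methylating the ribosomal protein RPS2, was one of the lower-expressed genes. Its libraries read 10.99, 9.76 and 10.88 FPKM in the control, 10.26, 10.94 and 10.07 FPKM after 30 min, and 6.13, 6.51 and 6.28 FPKM after 24 h. The control and 30 min libraries overlapped, and the 24 h libraries were all lower, with a log2 fold change of -0.79 ± 0.070 (SE, n = 3 per group, edgeR adjusted p = 4.2e-09).

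CARM1 (ENSG00000142453, chr19:10871553-10923075, plus strand), also called PRMT4, is a transcriptional coactivator that methylates histone H3. Control libraries held 28.94, 30.12 and 27.70 FPKM, 30 min libraries 25.78, 26.06 and 29.46 FPKM, and 24 h libraries 17.28, 17.71 and 18.88 FPKM. All 24 h libraries were below all others, and the log2 fold change was -0.74 ± 0.068 (SE, n = 3 per group, edgeR adjusted p = 7.0e-09). In the GENCODE annotation CARM1 shares 891 exon bases with YIPF2 on the opposite strand, whose log2 fold change was 0.24 and which was not called. The strand setting of the counting is not given in the sources used here, so reads of the shared bases cannot be assigned to either gene.

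PRMT2 (ENSG00000160310, chr21:46635595-46665124, plus strand), an enzyme with an SH3 domain and weak activity of its own, moved the other way. It was measured at 10.32, 10.44 and 9.75 FPKM in the control, 11.16, 10.79 and 11.83 FPKM after 30 min, and 17.91, 17.82 and 16.91 FPKM after 24 h. The groups stood in that order with no overlap between any pair of them. At 24 h the fold change was 1.67 and the log2 fold change 0.74 ± 0.061 (SE, n = 3 per group, edgeR adjusted p = 1.4e-09), at the 88.3rd percentile of all genes tested.

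PRMT5 (ENSG00000100462, chr14:22920525-22929408, minus strand) was the second most abundant of the 10 genes in control cells, and its replicate spread was small. Its libraries read 38.71, 39.72 and 39.18 FPKM in the control, 39.64, 37.58 and 39.82 FPKM after 30 min, and 21.34, 20.72 and 21.25 FPKM after 24 h. The 30 min libraries spanned the control values, and the 24 h libraries lay well below them. The log2 fold change at 24 h was -0.94 ± 0.058 (SE, n = 3 per group, 95% confidence interval -1.06 to -0.82, edgeR adjusted p = 1.4e-11). PRMT5 shares 924 exon bases with the antisense gene PRMT5-AS1, which had 8 to 18 counts per library.

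PRMT7 (ENSG00000132600, chr16:68310951-68360852, plus strand), the type III enzyme, was the least abundant of the 10 and changed least. Control libraries held 6.96, 7.09 and 6.81 FPKM, 30 min libraries 7.01, 6.41 and 7.79 FPKM, and 24 h libraries 5.75, 5.56 and 5.14 FPKM. The 24 h libraries were all below the control, but the log2 fold change of -0.39 ± 0.075 (SE, n = 3 per group, 95% confidence interval -0.55 to -0.23, edgeR adjusted p = 0.00012) was under the fold threshold. At any fold change, 31.8% of all genes tested passed the adjusted p on the lower side and 31.5% on the higher side, and all 10 genes passed it. PRMT7 shares 1931 exon bases with SMPD3, which had 23 to 48 counts per library.

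WDR77 (ENSG00000116455, chr1:111439890-111449256, minus strand), the core partner of PRMT5, fell by 35.8% at 24 h. Its level was 34.78, 36.36 and 34.06 FPKM in the control, 34.12, 34.28 and 35.77 FPKM after 30 min, and 24.27, 21.99 and 23.56 FPKM after 24 h. The 24 h libraries lay below all others, with a log2 fold change of -0.64 ± 0.063 (SE, n = 3 per group, edgeR adjusted p = 2.0e-08). This was the called decrease closest to the fold threshold, whose log2 is 0.58, and the call was lost with genes restricted to a mean above 5 FPKM (-0.58) and with limma on log2(FPKM + 1) (-0.57). WDR77 shares 90 exon bases with ATP5PB on the opposite strand (log2 fold change -0.31, not called) and 673 with a noncoding gene on its own strand that had 5 to 27 counts per library.

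CLNS1A (ENSG00000074201, chr11:77514936-77637794, minus strand), the adaptor for Sm proteins, was at 29.49, 30.51 and 31.63 FPKM in the control, 31.92, 29.82 and 30.23 FPKM after 30 min, and 15.86, 18.08 and 18.08 FPKM after 24 h. Only the 24 h libraries stood apart, and the log2 fold change was -0.86 ± 0.065 (SE, n = 3 per group, edgeR adjusted p = 3.3e-10). RIOK1 (ENSG00000124784, chr6:7389793-7418037, plus strand), an atypical kinase that takes part in maturation of the small ribosomal subunit, was at 18.52, 19.80 and 19.23 FPKM in the control, 18.69, 19.36 and 18.00 FPKM after 30 min, and 9.68, 9.83 and 10.02 FPKM after 24 h. Its control and 30 min libraries overlapped, and the 24 h libraries were lower, with a log2 fold change of -1.01 ± 0.069 (SE, n = 3 per group, edgeR adjusted p = 6.8e-11). Counts per library of the 10 genes ran from 332 (PRMT6) to 10251 (PRMT1). Of the pseudogene copies, PRMT1P1 had 0 to 5 counts per library, CARM1P1 had 0 to 1, and PRMT5P1 and CLNS1AP1 had 0 in all libraries.

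**Figure D2:**
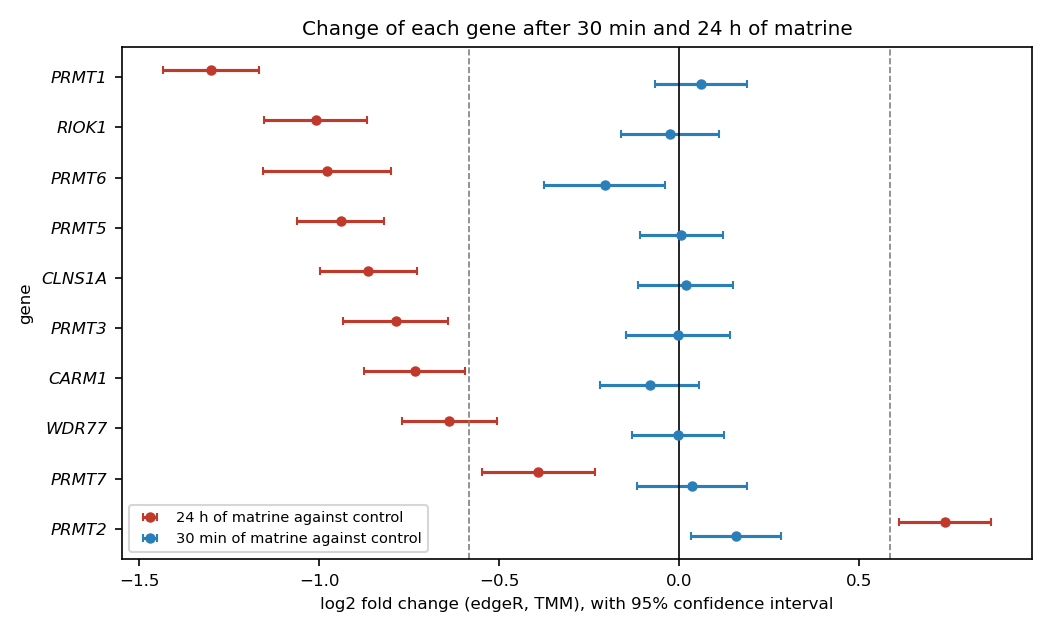
Log2 fold change (horizontal axis) of each gene against control after 24 h and after 30 min of matrine, from edgeR with TMM scaling, with 95% confidence intervals as bars. Dashed lines mark a fold change of 1.5 in either direction. The 24 h values run from -1.30 for PRMT1 to 0.74 for PRMT2, and the 30 min values lie between -0.21 and 0.16.

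After 30 min of matrine, edgeR called 0 of the 10 genes in either direction, and DESeq2 and limma also called 0. Among 11587 genes tested, 0.544% were called lower and 0.0949% higher. At an unadjusted p below 0.05 there were 2 of the 10 genes, PRMT2 and PRMT6, against 11.1% of all genes tested. PRMT2 had a log2 fold change of 0.16 (95% confidence interval 0.033 to 0.28, edgeR adjusted p = 0.27) and PRMT6 one of -0.21 (interval -0.38 to -0.038, edgeR adjusted p = 0.28). These were also the genes whose 30 min libraries did not overlap the control, PRMT6 being lower as were 8.91% of all genes, and PRMT2 being higher as were 4.89%. For PRMT5 the log2 fold change was 0.0054, with an interval of -0.11 to 0.12, which leaves out a change of 1.5-fold in either direction. The intervals of the other genes also ended short of that size. The median log2 fold change of the 10 genes was 0.0015, and that of all genes tested was -0.0043.

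Between 30 min and 24 h of matrine, 8 of the 10 genes were called lower, from -0.66 on the log2 scale in WDR77 to -1.38 in PRMT1, and 11.5% of all 11981 genes tested were called lower. PRMT5 had a log2 fold change of -0.97 between the time points and RIOK1 one of -1.004. The number called higher was 0 by edgeR and by DESeq2 and 1 by limma, against 15.4% of all genes by edgeR. PRMT2 was the gene in question, with a log2 fold change of 0.56 ± 0.060 (SE, n = 3 per group, edgeR adjusted p = 6.6e-08) and a fold change of 1.47. Without replicate 3 of the 30 min group, or without replicate 3 of the 24 h group, its log2 fold change was 0.59 and it was called. PRMT7 was again lower by less than the threshold (-0.45, edgeR adjusted p = 2.4e-05). At any fold change 32.6% of all genes were lower and 32.5% higher at an adjusted p below 0.05, and 68.1% had an unadjusted p below 0.05, as did all 10 of these genes. The libraries of the 2 time points did not overlap in any of the 10, 9 lower and 1 higher, against 28.8% and 39.7% of all genes. This comparison shares its 24 h libraries with the comparison against control.

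The unequal changes moved the order of the levels. In control cells the order by mean FPKM was PRMT1 (91.4 ± 5.21, SD, n = 3 for each gene), PRMT5 (39.2 ± 0.505), WDR77 (35.1 ± 1.18), CLNS1A (30.5 ± 1.07), CARM1 (28.9 ± 1.21), RIOK1 (19.2 ± 0.641), PRMT6 (12.6 ± 0.174), PRMT3 (10.5 ± 0.681), PRMT2 (10.2 ± 0.369) and PRMT7 (6.95 ± 0.140). Only CLNS1A and CARM1, and PRMT3 and PRMT2, overlapped their neighbour in that order. After 24 h WDR77 (23.3 ± 1.17) stood above PRMT5 (21.1 ± 0.335) without overlap. PRMT2 (17.5 ± 0.553) had moved up to the levels of CARM1 (18.0 ± 0.828) and CLNS1A (17.3 ± 1.28), and these 3 overlapped. The lowest levels were those of PRMT6 (6.63 ± 0.481) and PRMT3 (6.31 ± 0.191), which overlapped, and PRMT7 (5.48 ± 0.312). Summed over the 10 genes, the level was 278.63 to 293.86 FPKM in control libraries, 273.32 to 293.0 FPKM after 30 min and 161.94 to 167.03 FPKM after 24 h.

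As a share of the summed FPKM of the 7 methyltransferases, PRMT1 made up 45.7% ± 1.16 (SD, n = 3) in the control and 33.8% ± 1.04 after 24 h. The share of PRMT2 was 5.09% ± 0.159 and then 15.5% ± 0.715. PRMT5 made up 19.6% ± 0.408 and then 18.6% ± 0.275. The libraries of control and 24 h did not overlap in these 3 shares, that of PRMT5 ending at 18.9% at 24 h and starting at 19.2% in the control. The shares of CARM1 (14.5% and then 15.8%) and PRMT7 (3.48% and then 4.84%) also rose without overlap, although their FPKM fell. Those of PRMT3 and PRMT6 overlapped. The shares are parts of a common sum, so a share also rises when the other enzymes fall. mRNA shares say nothing of the amounts or activities of the enzymes.

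Ratios within a library do not depend on the scaling between libraries. The ratio of WDR77 to PRMT5 was 0.894 ± 0.0233 (SD, n = 3) in control cells, 0.890 ± 0.0266 after 30 min and 1.10 ± 0.0384 after 24 h. The log2 difference between 24 h and control was 0.30 ± 0.036 (SE), the groups did not overlap, and the two-sided exact permutation p was 0.1, the smallest that 3 against 3 libraries can give. PRMT1 to PRMT5 was 2.33 ± 0.104 in the control, 2.42 ± 0.0798 after 30 min and 1.82 ± 0.0638 after 24 h, a log2 difference at 24 h of -0.36 ± 0.047 (SE, exact permutation p = 0.1, no overlap). For both ratios the difference was larger than the spread between replicates. The ratio of the adaptors, CLNS1A to RIOK1, was 1.59 ± 0.0520 in the control and 1.76 ± 0.107 after 24 h, and the groups overlapped (log2 difference 0.14 ± 0.058, SE, exact permutation p = 0.2). At 30 min the differences from control were -0.0066 for WDR77 to PRMT5, 0.055 for PRMT1 to PRMT5 and 0.044 for CLNS1A to RIOK1, each with overlapping libraries.

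**Figure D3:**
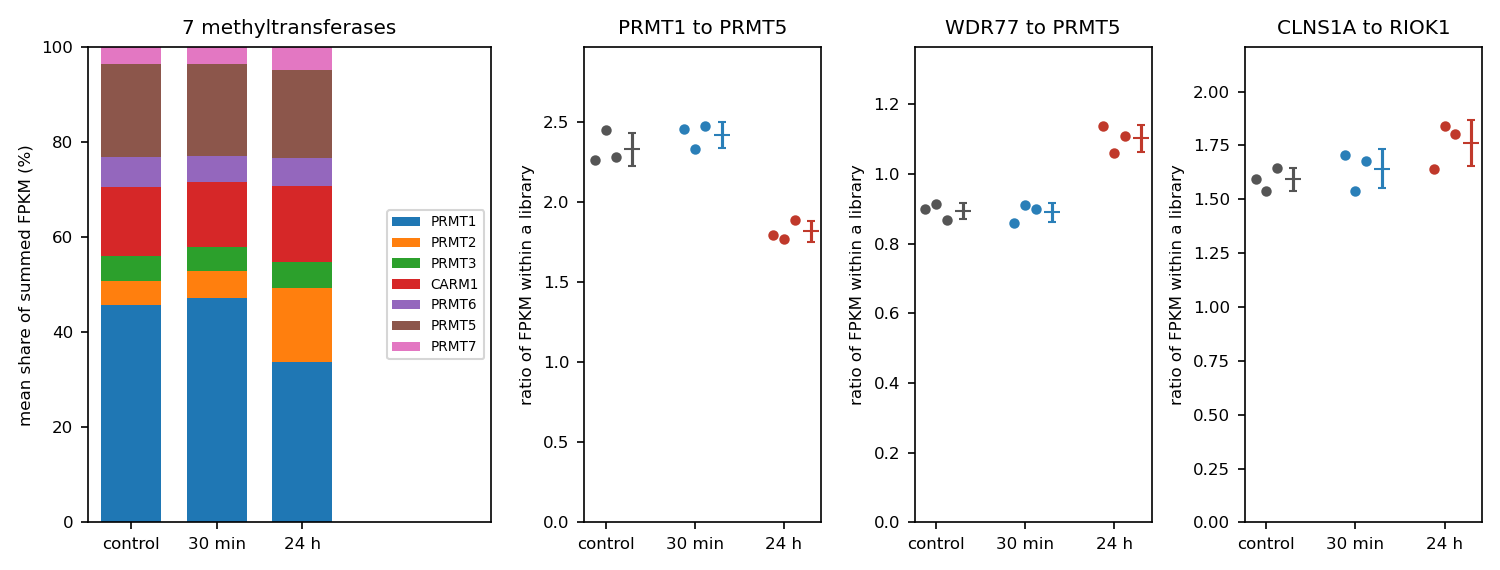
Left, mean share (%) of each of 7 methyltransferases in their summed FPKM in each group (n = 3 libraries). Right, ratios of FPKM within a library (points, with mean ± SD beside them, axes from 0) for PRMT1 to PRMT5, WDR77 to PRMT5 and CLNS1A to RIOK1. The share of PRMT1 is 45.7% in the control and 33.8% at 24 h, and the ratio of WDR77 to PRMT5 is 0.894 and 1.10.

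Of the remaining arginine methyltransferases, 1 of the 2 tested was called lower at 24 h. NDUFAF7, a mitochondrial enzyme that methylates a subunit of complex I, was the called gene (log2 fold change -0.62, edgeR adjusted p = 1.9e-06), PRMT9 had -0.39 and was not called, and PRMT8 had 0 counts in every library. Beyond the enzymes, a list held COPRS, a PRMT5 adaptor, with Sm proteins and genes of the SMN complex that PRMT5 serves in snRNP assembly. The SMN genes themselves were not in the list. Of its 16 genes, 5 were called lower, 0 higher and 11 not called, with a median log2 fold change of -0.55. Among all genes tested 11.2% were called lower and 15.1% higher. All 16 values were below 0. GEMIN5, the RNA-binding subunit of the SMN complex, had the largest decrease (-1.40, 10.7 to 4.18 FPKM, edgeR adjusted p = 7.1e-12), followed by GEMIN6 (-1.03), SNRPF (-0.73) and SNRPE (-0.70). COPRS itself was at -0.35 and was not called. The median over all genes tested was 0.0082, and lists were chosen with results of these data known, so their counts are descriptions.

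Among proteins known to carry methylated arginine, 4 of 12 tested were called lower, 0 higher and 8 not called (median -0.33), against 11.2% of all genes called lower. The 4 were NCL (nucleolin), the cargo of RIOK1, at -1.13 on the log2 scale and from 288 to 136.5 FPKM, SERBP1 at -1.03, FBL (fibrillarin) at -0.92 and GAR1 at -0.91. The last 3 and NCL are RNA-binding proteins, and NCL, FBL and GAR1 reside in the nucleolus. Of 11 enzymes that supply or recycle SAM, 1 was lower and 10 were not called (median -0.20), a share near the 11.2% of all genes. The called gene was MTAP (-0.65, edgeR adjusted p = 4.5e-07), which breaks down methylthioadenosine, a metabolite that inhibits PRMT5.

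The lists that read, remove or regulate arginine methylation held the called increases of the pathway beside PRMT2. Of 5 readers and removal enzymes tested, 2 were called higher, 0 lower and 3 not called (median 0.090), against 15.1% of all genes called higher. TDRKH, a Tudor-domain protein, rose from 2.05 to 5.75 FPKM (log2 fold change 1.44, edgeR adjusted p = 7.7e-11), and DDAH2, of the family that degrades free methylarginine, from 8.94 to 17.3 FPKM (0.90). DDAH1, PADI2 and PADI4 did not pass the filter. Of 3 proteins that bind PRMT1 or PRMT3, BTG1 was called higher (0.59, a fold change of 1.505, at the threshold), and the other two were not called (median 0.12). For comparison, 2 of 25 lysine methyltransferases tested were lower, 0 higher and 23 not called (median -0.12), a share near the 11.2% of all genes. The called genes were SMYD5 (-0.66) and SUV39H2 (-0.63). At 30 min edgeR called 0 genes in each of these lists. Between 30 min and 24 h the list of COPRS, Sm proteins and SMN complex had 9 of 16 genes called lower, and the substrate list had 4 of 12, against 11.5% of all genes. In that comparison 0 of 2 other arginine methyltransferases, 0 of 11 SAM enzymes and 1 of 25 lysine methyltransferases were called lower. NDUFAF7 and MTAP were thus not called there. The readers and removal enzymes had 2 of 5 called higher and the proteins that bind PRMT1 or PRMT3 had 1 of 3, against 15.4% of all genes.

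**Figure D4:**
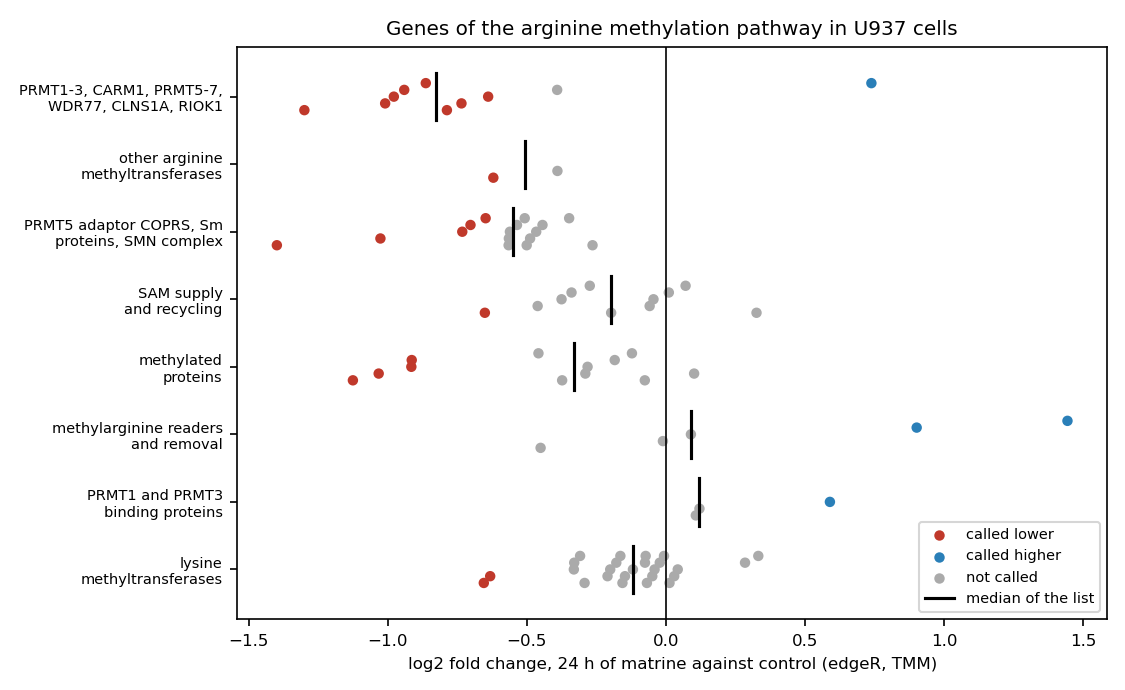
Log2 fold change at 24 h of matrine against control (horizontal axis, edgeR with TMM scaling) of each gene tested in 8 lists (rows, vertical offsets within a row have no meaning). Red and blue points were called lower and higher, grey points were not called, and black lines are list medians, -0.83 for the 10 genes in the top row and -0.12 for the lysine methyltransferases.

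The genes whose pattern over the 9 libraries was most like that of PRMT5 were VARS1, NOC2L, EIF3B, RCC1 and TUFM. Likeness was the root mean square difference between log2 CPM values, each centred on its gene's mean, and was 0.032, 0.033, 0.033, 0.034 and 0.039 for these genes in turn. VARS1, the cytosolic valyl-tRNA synthetase, went from 55.5 ± 0.360 FPKM (SD, n = 3) in the control to 30.0 ± 0.913 FPKM after 24 h, and NOC2L from 76.1 ± 3.02 to 41.6 ± 0.944 FPKM. Among 12034 genes ranked, RIOK1 stood at 26, CLNS1A at 85, PRMT3 at 307, PRMT6 at 337, CARM1 at 516, WDR77 at 616, PRMT1 at 976, PRMT7 at 1809 and PRMT2 at 10065. These ranks describe 9 shared libraries and carry no test. The centred values were not scaled to equal spread, so the ranks also depend on the size of each change. At 24 h against control the log2 fold change was -1.30 in PRMT1, -0.94 in PRMT5 and -0.64 in WDR77.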

How the data were processed

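RNA-seq of U937 cells was analysed from 1 table with 2 values per gene and library. The authors trimmed and mapped the reads, counted them per gene, and deposited the raw counts, which are whole numbers, and FPKM values, which they scaled by the library total and gene length. The submitters' processing notes name cutadapt 1.9.1, HISAT2 2.0.1, HTSeq 0.6.1 and GRCh37, whereas the study's methods name hg38. The build was not settled, and the table holds no coordinates. Annotation release and strand setting are not given in the sources used here. Of 57905 Ensembl identifiers 51996 were matched in GENCODE release 44, the source of positions and overlaps, and promoter windows came from RefSeq (GRCh38.p14).

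The counts were tested with edgeR 4.0.16 (R 4.3.3), using the quasi-likelihood test, TMM and 1 fit of all 9 libraries, for genes with a mean above 1 FPKM over the 6 libraries compared. Genes were called at an adjusted p below 0.05 (Benjamini-Hochberg over all genes tested) and a fold change of at least 1.5. Limits on error are Wald intervals. The procedure was run on simulated counts with 200 of 12035 genes changed, without the filter on low values or the fold threshold. At an adjusted p below 0.05, 195 of the 200 were recovered, with 11 false calls. In the real data at 24 h, 3824 genes were lower and 3794 higher at that adjusted p. The simulation therefore does not test the scaling or the calls at that extent of change. Ratios of FPKM were compared by exact permutation. Alternatives used DESeq2 1.42.0, limma 3.58.1 on log2(FPKM + 0.1) and log2(FPKM + 1), other filters, scalings and fold thresholds, a replicate block, and each library left out. Library totals taken over the genes tested were added after the data were seen.

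All 10 genes are named. From the other lists the text names up to 4 called, non-overlapping genes with the largest change, and the 5 genes most like PRMT5. COPRS, PRMT8, PRMT9, genes that did not pass the filter and overlapping genes are named as limits or to account for a list. The 10 genes and the lists were chosen with earlier results of these data known. TAF15 was not matched. Reads counted on PCR copies are not independent molecules, and replicate libraries differed by more than counting noise.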

Additional observations from a re-analysis of the deposited data

Results flagged for a closer look

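By edgeR's quasi-likelihood test of 24 h against 30 min, all 10 mRNAs differed between the time points at an adjusted p below 0.05. Of these, 8 also passed the fold threshold of 1.5, all of them lower. Among all 11981 genes tested, 32.6% were lower and 32.5% higher at that adjusted p. With the fold threshold, 11.5% were lower and 15.4% higher. The log2 fold change of the 8 mRNAs, 24 h against 30 min, was -1.38 in PRMT1, -0.80 in PRMT3, -0.67 in CARM1, -0.97 in PRMT5, -0.79 in PRMT6, -0.66 in WDR77, -0.90 in CLNS1A and -1.004 in RIOK1. Below the fold threshold were PRMT7, at -0.45, and PRMT2, at 0.56. Each comparison was filtered and TMM-scaled on its own genes, so these values are not the exact differences of the 2 log2 fold changes against control. In 9 genes all 3 libraries of 24 h were below all 3 of 30 min, and in PRMT2 all 3 were above. The same held for 28.8% of all genes tested on the lower side and 39.7% on the higher side.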

How the results depend on the processing

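At 24 h against control every one of the 10 genes kept its direction in all alternatives run, and leaving out any 1 library left 8 lower and 1 higher. With a 2-fold threshold, 2 genes were lower and 0 higher against control, and 2 were lower against 30 min. The number higher at 24 h against 30 min, 0, was 1 (PRMT2) with library totals alone, genes above 5 FPKM, limma with either pseudocount, a fold change of at least 1.2 or no threshold, and 0 to 1 with 1 library left out. Against 30 min, WDR77 lost its call with library totals alone (-0.577), genes above 5 FPKM (-0.580) and limma (-0.576 and -0.558), and CARM1 with limma on log2(FPKM + 1) (-0.566).

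At 30 min, where 0 of the 10 genes were called, signs near 0 turned. With DESeq2's size factors, no filter and DESeq2, PRMT3 was 0.0103, 0.00708 and 0.0103, and WDR77 was 0.0116, 0.00793 and 0.0116. PRMT5 was -0.00687 with library totals alone, -0.00309 above 5 FPKM, and -0.00740 and -0.00723 with limma. With 1 library left out, the log2 fold change ranged from -0.050 to 0.043 in PRMT3, -0.027 to 0.033 in WDR77, -0.036 to 0.0059 in RIOK1, -0.012 to 0.058 in PRMT5, -0.018 to 0.065 in CLNS1A and -0.034 to 0.13 in PRMT7. The cause was not tested.

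Over all genes at 24 h against control, 808 were lower and 869 higher above 5 FPKM, 3210 and 3319 at a fold change of 1.2, 355 and 765 at 2, and 3824 and 3794 with no threshold. At 30 min, 95 and 30 were called with no filter, 151 and 33 at 1.2, 23 and 1 at 2, and 154 and 34 with no threshold. The number higher at 30 min was 7 above 5 FPKM, 7 with limma on log2(FPKM + 1), and 18 without 30 min replicate 2. At 24 h against 30 min, 787 and 913 were called above 5 FPKM, 3273 and 3426 at 1.2, 345 and 777 at 2, 3903 and 3894 with no threshold, and 820 were lower with limma on log2(FPKM + 1). There the lower share of called genes was 42.8%, against 32.6% with library totals alone and 32.6% with limma on log2(FPKM + 0.1).

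Samples of the same number did not deviate together (correlations of -0.15 to 0.093). The labels give replicate numbers but do not say whether libraries of the same number were handled together. These correlations cannot decide it. With the number as a replicate block, 8 genes were lower and 1 higher at 24 h against control, 0 and 0 at 30 min, and 8 and 0 at 24 h against 30 min, and 1343 and 1815 of all genes were called at 24 h. With 3 libraries per group no exact permutation p is below 0.1.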
